A study of Mus musculus with 5 samples.

Results

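The ADAM and ADAMTS families of proteases were examined in endothelial cells of mouse liver and of liver tumors. Members were all genes whose name on the array begins with Adam, Adamts or Adamtsl and continues with a digit. This gave 57 of 33003 gene names, of which 33 were ADAM, 19 ADAMTS and 5 ADAMTSL genes, measured by 123 probes. Where a gene had several probes, the probe with the highest mean signal was used. Each condition had 1 array. LSECs (liver sinusoidal endothelial cells) came from livers labelled C57BL/6. The 3 samples of TECs (tumor endothelial cells) came from hepatomas grown from HAK-1B, Hepa1-6 or KYN-2 cells and were labelled C57BL/6 as well, whereas the methods name C57BL/6 and nude hosts, so the host of each tumor was not settled. The mice were female, and the tumors were grown in the left lobe of the liver. The first and last of these lines are human and Hepa1-6 is from mouse, so tumor cells and array were of different species in a pair of the models. Endothelial cells were taken from digested tissue with magnetic beads against CD31, a surface protein that platelets and some leukocytes carry too. The fifth sample was cultured Hepa1-6 cells, labelled C57L. The methods paragraph on the arrays names another line, Huh-7, in the place of HAK-1B, and the labels were followed here.

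ADAM proteins are anchored in the cell membrane and join a metalloprotease domain to a disintegrin domain. Active members act as sheddases, which release the outer part of growth factors, cytokine receptors and adhesion molecules from the cell surface, while other members lack the residues for catalysis and serve in adhesion. ADAMTS proteases are secreted, carry thrombospondin repeats and cut proteins of the extracellular matrix and plasma, such as versican, procollagen and von Willebrand factor. ADAMTSL proteins resemble ADAMTS proteases without the protease domain and bind to microfibrils of the matrix.

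All 10 pan-endothelial markers and all 8 LSEC markers on the lists were well above background (a flag that the scanner software sets for each spot) on the 4 endothelial arrays, against 2 of 10 and 2 of 8 in Hepa1-6 cells. The summed signal of the pan-endothelial list was 334811 in LSECs and 55108 to 110557 in the TECs. Macrophage markers were detected on the 4 endothelial arrays as well (10 of 10 on each, summed signal 680261 in LSECs and 258173 to 421596 in the TECs). The Hepa1-6 TEC array stood apart, with 78.1% of its probes well above background against 44.6% to 57.6% on the others. Its lowest normalized log2 signal well above background was 2.85, against 4.28 to 5.96 on the others. Its median signal before normalization was 85.6, against 22.7 to 45.4 on the others. Signals that counted as detected there could thus be dim after normalization, which does not mean that they were dimmer as measured. On the Hepa1-6 cell array the 99th percentile of negative control spots was 225.9 before log2, against 5.02 to 30.2 on the others. The arrays lay on 3 slides, the TECs together and LSECs and Hepa1-6 cells apart, and slide and group cannot be told apart. With 1 array per condition no ratio of a single TEC to LSEC has a replicate check, and in bulk samples fewer cells of a type and less RNA per cell cannot be told apart.

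**Figure D1:**
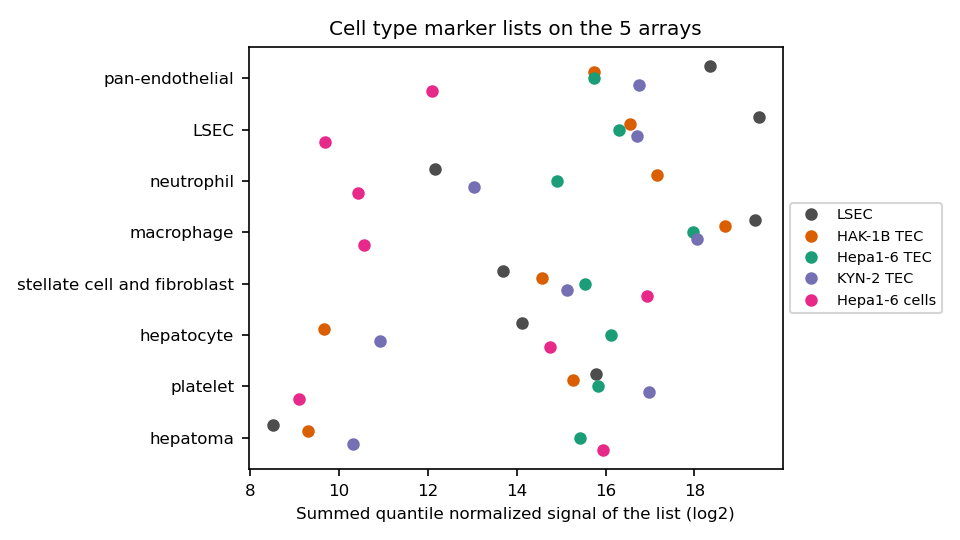
Summed quantile normalized signal (log2) of 8 lists of cell type markers, 1 point per array. Endothelial and LSEC lists are highest in LSECs, the neutrophil list in HAK-1B TECs (145875 before log2), and the hepatocyte and hepatoma lists are higher in Hepa1-6 TECs than in the other TECs.

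Detection of the families was set beside that of all gene names. In LSECs 26 of 57 members (45.6%) were well above background, where 55.9% of all gene names were. The count was 35 (61.4%) in HAK-1B TECs against 58.6% of all gene names, 45 (78.9%) in Hepa1-6 TECs against 78.7%, and 30 (52.6%) in KYN-2 TECs against 56.4%. In Hepa1-6 cells 18 members (31.6%) were detected, against 47.2% of all gene names. Over the probes of RefSeq mRNAs alone the shares were 68.5%, 70.8%, 86.0%, 69.5% and 59.1% on LSEC, HAK-1B TEC, Hepa1-6 TEC, KYN-2 TEC and Hepa1-6 cell arrays, each above the share of members. The order of the 5 arrays by members detected was the order by all gene names. No member was detected in Hepa1-6 cells and on no endothelial array.

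**Figure D2:**
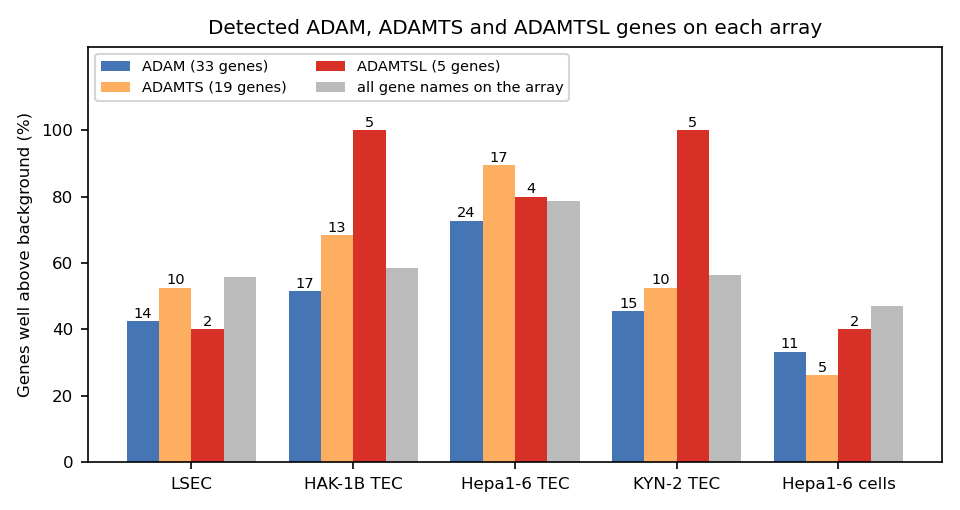
Share of genes well above background on each array, in percent, for ADAM, ADAMTS and ADAMTSL genes and for all gene names (grey); the number over a bar is the count of genes. ADAMTSL genes went from 2 of 5 in LSECs to 5 of 5 in HAK-1B and KYN-2 TECs, while the shares of ADAM genes stayed below those of all genes on each array.

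Detection was counted by family as well. Of 33 ADAM genes 14 were detected in LSECs, 17 in HAK-1B TECs, 24 in Hepa1-6 TECs, 15 in KYN-2 TECs and 11 in Hepa1-6 cells. Of 19 ADAMTS genes 10 were detected in LSECs, 13 in HAK-1B TECs, 17 in Hepa1-6 TECs, 10 in KYN-2 TECs and 5 in Hepa1-6 cells. The 5 ADAMTSL genes were detected as 2 in LSECs (Adamtsl3 and Adamtsl4), 5 in HAK-1B TECs, 4 in Hepa1-6 TECs, 5 in KYN-2 TECs and 2 in Hepa1-6 cells. On all 5 arrays 15 members (26.3%) were well above background, where 41.9% of all gene names were: Adam1a, Adam8, Adam9, Adam10, Adam11, Adam15, Adam17, Adam19, Adam23, Adamts1, Adamts4, Adamts7, Adamts10, Adamts14 and Adamtsl4. A further 8 (14.0%, where 9.54% of all gene names were) were detected on all 4 endothelial arrays but not in Hepa1-6 cells, namely Adam12, Adam22, Adam33, Adamts2, Adamts9, Adamts12, Adamts20 and Adamtsl3. Of the genes detected on all 5 arrays, some lay below the 99th percentile of negative controls (225.9) in Hepa1-6 cells. Before normalization these were Adam1a (173.9), Adam19 (181.6), Adam23 (72.4), Adamts7 (114.2), Adamts10 (131.0) and Adamtsl4 (135.2).

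Members were also grouped by the tissues and substrates they are known for. A group of 9 ADAM proteases held Adam8, Adam9, Adam10, Adam12, Adam15, Adam17, Adam19, Adam28 and Adam33. Some of them are found in most tissues and others are known from particular tissues. Of these 9, all were detected in LSECs, HAK-1B TECs and Hepa1-6 TECs, 8 in KYN-2 TECs and 6 in Hepa1-6 cells. Of the 21 ADAM genes known from testis or epididymis, 2 were detected in LSECs, 5 in HAK-1B TECs, 12 in Hepa1-6 TECs, 4 in KYN-2 TECs and 3 in Hepa1-6 cells. The shares of all gene names on these arrays were 55.9%, 58.6%, 78.7%, 56.4% and 47.2%. On none of the arrays 9 members (15.8%) were detected, against 18% of all gene names. Of these 8 belonged to this group (Adam1b, Adam2, Adam6a, Adam20, Adam21, Adam25, Adam29 and Adam34), and the remaining gene was Adamts19. Detection in LSECs and in no TEC was seen for 0 members and for 0.742% of all gene names, whereas 22 members (38.6%) were detected in at least 1 TEC and not in LSECs, against 25.3% of all gene names. Of these, 10 (17.5% of members, against 16.2% of all gene names) were detected in Hepa1-6 TECs and on no other array, and Hepa1-6 TECs had the most probes above background. In all 3 TECs and not in LSECs 4 (7.02%, against 2.59%) were detected: Adam32, Adamts5, Adamtsl2 and Adamtsl5.

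Which members differ from LSECs in the endothelium of each tumor was the main comparison. Because a test needs replicates, members were counted by size, at least 2-fold in quantile normalized signal with the probe well above background on at least 1 of the arrays compared. By measured signal 5 members were at least 2-fold higher in all 3 TECs: Adam8, Adamts4, Adamts5, Adamtsl4 and Adamtsl5. They were 5 of 30 members that could be compared in this way (16.7%), where 6.34% of all genes were higher. The 3 members Adam1a, Adam23 and Adam26b were at least 2-fold lower in all 3 TECs, or 10% where 11% of all genes were lower. Adamts5 and Adamtsl5 were not well above background in LSECs and entered the count through the TECs, so that these shares support nothing about the families. With signals below background set to the dimmest signal detected on the array, a setting added after the data were seen, 4 members were higher in all 3 TECs, and Adamts5 was at least 1.39-fold higher in Hepa1-6 TECs. Of the 23 members detected on all 4 arrays, 3 were higher in all 3 TECs (Adam8, Adamts4 and Adamtsl4; 5.29% of all genes by this filter) and 2 lower (Adam1a and Adam23; 8.77%). The 3 comparisons shared the LSEC array.

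Promoters of 31 of the 57 members were found in a RefSeq table of mouse promoters (GRCm38.p6). The 250 bases before the gene start are shown for the 3 members of the higher set that the table held (Adam8, Adamtsl4 and Adamtsl5) and for Adam23, which had the lowest mean ratio, because the signal of each lay on the same side of LSECs in all 3 TECs. The patterns were sought on either strand. ACGTG was taken for hypoxia-inducible factors, as was the variant GCGTG. The AP-1 pattern was TGANTCA and that of NF-kB was GGGNNNNNCC. For GATA factors the letters were AGATAA, with TGATAA as a variant. The GC box was taken as GGGCGG. Capitals mark each match other than those of the GC box. Adam8 lies at chr7:139992563-139992812 and Adamtsl4 at chr3:95687918-95688167, Adamtsl5 at chr10:80348449-80348698, all on the minus strand, and Adam23 at chr1:63445641-63445890 on the plus strand.
Adam8: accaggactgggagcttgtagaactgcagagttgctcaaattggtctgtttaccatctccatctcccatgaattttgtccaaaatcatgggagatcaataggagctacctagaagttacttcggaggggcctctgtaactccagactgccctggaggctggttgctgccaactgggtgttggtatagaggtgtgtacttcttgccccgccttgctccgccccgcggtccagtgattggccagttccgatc
Adamtsl4: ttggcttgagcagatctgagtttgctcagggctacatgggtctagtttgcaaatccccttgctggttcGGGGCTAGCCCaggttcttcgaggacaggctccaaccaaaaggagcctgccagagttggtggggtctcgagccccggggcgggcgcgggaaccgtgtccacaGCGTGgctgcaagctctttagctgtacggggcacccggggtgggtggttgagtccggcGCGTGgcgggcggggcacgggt
Adamtsl5: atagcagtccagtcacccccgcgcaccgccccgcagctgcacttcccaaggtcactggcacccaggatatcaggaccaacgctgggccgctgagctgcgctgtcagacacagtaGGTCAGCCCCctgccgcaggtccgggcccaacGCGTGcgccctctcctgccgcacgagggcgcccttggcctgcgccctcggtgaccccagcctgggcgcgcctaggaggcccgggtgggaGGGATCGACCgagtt
Adam23: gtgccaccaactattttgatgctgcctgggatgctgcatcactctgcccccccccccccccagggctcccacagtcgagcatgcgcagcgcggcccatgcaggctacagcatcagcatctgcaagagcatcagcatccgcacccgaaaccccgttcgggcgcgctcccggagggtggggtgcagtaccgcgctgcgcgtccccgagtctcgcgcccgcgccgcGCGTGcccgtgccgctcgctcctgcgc

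The promoter of Adam8 held none of the capitalised patterns. GCGTG was found 2 times in the promoter of Adamtsl4 and 1 time each in those of Adamtsl5 and Adam23, and GGGNNNNNCC 2 times each in those of Adamtsl4, where the matches overlap, and Adamtsl5. ACGTG, the AP-1 pattern and the GATA patterns were in none of these 4 promoters. The GC box was found 1 time in the promoters of Adam8 and Adamtsl5, 2 times in that of Adamtsl4 and 0 times in that of Adam23. Over all 32851 promoters of this length, 16.6% held ACGTG, 28.2% GCGTG, 6.75% the AP-1 pattern, 45.8% GGGNNNNNCC, 9.99% AGATAA, 7.94% TGATAA and 32.7% the GC box. Over 33 promoters of members the shares were 24.2% for ACGTG, 48.5% for GCGTG, 12.1% for the AP-1 pattern, 63.6% for GGGNNNNNCC, 0% for AGATAA, 3.03% for TGATAA and 45.5% for the GC box. Member promoters had a median GC content of 62.0% against 52.4% for all promoters. Adam8 had 52.8% GC, Adamtsl4 64.4%, Adamtsl5 70.8% and Adam23 70.4%. A match of letters does not show that a factor binds there.

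Adam8, a sheddase of myeloid leukocytes that cuts adhesion molecules and cytokine receptors, had the largest mean ratio of all members. Its signal (log2, quantile normalized) was 9.05 in LSECs, 14.83 in HAK-1B TECs, 14.02 in Hepa1-6 TECs, 15.62 in KYN-2 TECs and 8.08 in Hepa1-6 cells. All 3 TECs were far above both LSECs and tumor cells. The ratio to LSEC was 54.9-fold in HAK-1B, 31.3-fold in Hepa1-6 and 94.8-fold in KYN-2 TECs, with a mean log2 ratio of 5.77 ± 0.80 (SD, n = 3 TECs). The other probe for Adam8, undetected in LSECs, was at least 63.0-fold, 19.2-fold and 136.3-fold higher in the same order. The probe shown lies at chr7:147164873-147164932 (mm9, minus strand); whether it lies in coding sequence was not annotated here, as no annotation of mm9 was used.

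Markers of leukocytes, which carry Adam8, were read from the same arrays. Neutrophil markers had a summed signal of 4580.8 in LSECs, 145875 in HAK-1B TECs, 30847 in Hepa1-6 TECs, 8454.5 in KYN-2 TECs and 1387.5 in Hepa1-6 cells, with 6, 10, 10, 8 and 2 of 10 markers detected. Ly6g, Cxcr2, Ltf and Ngp were not well above background in LSECs, and Ly6g and Ngp not in KYN-2 TECs. Of the 10 markers 8 were at least 2-fold higher than in LSECs in HAK-1B TECs, 8 in Hepa1-6 TECs and 5 in KYN-2 TECs. Mpo and Elane stayed near LSECs in HAK-1B TECs (log2 ratios of 0.20 and 0.10), and Retnlg was lower in KYN-2 TECs (-1.47). Ly6g was highest of the 5 arrays in cultured Hepa1-6 cells (9.74), where Elane was detected too (8.54). Of 10 macrophage markers 5 were at least 2-fold lower in all 3 TECs and none higher. Those 5 were Clec4f, Marco, Vsig4, Timd4 and Cd5l, which are known from the resident Kupffer cells of the liver. Cd68, a marker of macrophages at large, had log2 ratios of 0.85, 0.12 and 1.25. The rest of the list, Adgre1, Csf1r, C1qa and C1qb, did not share this direction. These genes were above LSECs in HAK-1B TECs (log2 ratios of 0.04, 0.24, 0.83 and 0.54). They were below LSECs in Hepa1-6 TECs (-1.51, -0.90, -0.79 and -0.86) and in KYN-2 TECs. The part of these cells in the Adam8 signal was not tested.

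Both aggrecanases among the 5 genes, which cut the proteoglycans aggrecan and versican, were higher in the TECs. Adamts4 had log2 signals of 7.89 in LSECs, 11.25 in HAK-1B TECs, 10.86 in Hepa1-6 TECs, 11.50 in KYN-2 TECs and 10.72 in Hepa1-6 cells. LSECs alone were low, and cultured tumor cells lay just below the TECs. The ratio to LSEC was 10.3-fold, 7.82-fold and 12.2-fold in TECs of HAK-1B, Hepa1-6 and KYN-2, a mean log2 ratio of 3.31 ± 0.32 (SD, n = 3 TECs), and 7.09-fold in Hepa1-6 cells. The 3 probes for Adamts4 were higher in all 3 TECs, by unequal amounts. A second probe gave log2 signals of 6.47, 6.81, 11.08, 7.59 and 11.01 in LSECs, HAK-1B TECs, Hepa1-6 TECs, KYN-2 TECs and Hepa1-6 cells, high in Hepa1-6 TECs and Hepa1-6 cells and closer to LSECs in the TECs of the human lines (log2 ratios of 0.34 and 1.12). The last probe had log2 ratios of 2.10, 2.31 and 2.57 in the 3 TECs. By the second probe alone Adamts4 would not have reached 2-fold in HAK-1B TECs.

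Adamts5, the neighbour of Adamts1 on chromosome 16 with no coding gene between them, was not well above background in LSECs (3.33) or Hepa1-6 cells (2.42). It was detected at 5.82 in HAK-1B TECs, 5.15 in Hepa1-6 TECs and 6.18 in KYN-2 TECs. By the rule for undetected signals (the fold against the dimmest LSEC signal that was detected) it was at least 2.20-fold higher in HAK-1B, 1.39-fold in Hepa1-6 and 2.83-fold in KYN-2 TECs. A second probe was above background in HAK-1B TECs alone and the last on none of the arrays, so the result rests on 1 probe with a low signal.

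Adamtsl4, a secreted protein that binds fibrillin microfibrils, had log2 signals of 6.82 in LSECs, 10.38 in HAK-1B TECs, 9.24 in Hepa1-6 TECs, 8.06 in KYN-2 TECs and 6.94 in Hepa1-6 cells. All 3 TECs lay above LSECs. Tumor cells had a signal near that of LSECs, but it lay below the 99th percentile of negative controls on their array. The ratios to LSEC were 11.8-fold, 5.37-fold and 2.37-fold (mean log2 ratio 2.41 ± 1.16, SD, n = 3 TECs), and by the other probe, dim in LSECs, Adamtsl4 was at least 10.8-fold, 4.62-fold and 2.44-fold higher. Its order among the TECs, HAK-1B before Hepa1-6 before KYN-2, was the reverse of that of Adamtsl5.

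Adamtsl5, a secreted protein of the same family, was not well above background in LSECs (3.63). It was 6.90 in HAK-1B TECs, 7.96 in Hepa1-6 TECs, 8.70 in KYN-2 TECs and 9.07 in Hepa1-6 cells, the highest of the 5 arrays. It was at least 4.66-fold higher than in LSECs in HAK-1B TECs, 9.71-fold in Hepa1-6 TECs, 16.3-fold in KYN-2 TECs and 21.0-fold in Hepa1-6 cells. The second probe was above background on all 5 arrays and gave smaller log2 ratios of 1.02, 1.70 and 2.32 in the TECs and 3.49 in Hepa1-6 cells, in the same order. The hepatoma marker list had a summed signal of 366.1 in LSECs, 629.4 in HAK-1B TECs, 44180 in Hepa1-6 TECs, 1276.6 in KYN-2 TECs and 62599 in Hepa1-6 cells, high in the same pair of samples as the second probe of Adamts4. Afp (15.38 in Hepa1-6 TECs and 15.92 in Hepa1-6 cells) made up most of both sums, and Gpc3 was high there too (10.13 and 9.52). H19 and Igf2 were not well above background in Hepa1-6 cells (4.87 and 5.06), and H19 was highest in KYN-2 TECs (9.71). The list holds mouse genes, so that it does not stand for tumor cells of the human lines. The part of tumor cell RNA in the signals of Adamts4 and Adamtsl5 was not tested.

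**Figure D3:**
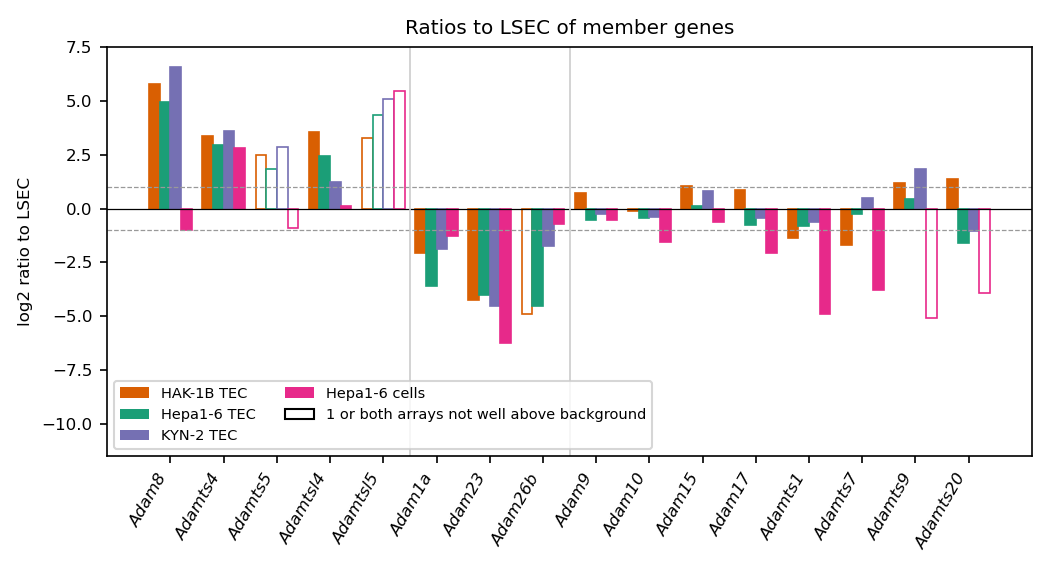
Log2 ratio to LSEC of members in the 3 TECs and in Hepa1-6 cells, 1 bar per array; open bars mark pairs in which 1 or both arrays were not well above background, and dashed lines mark 2-fold. The groups divided by grey lines are the 5 members higher in all 3 TECs, the 3 lower in all 3 TECs, and other members; Adam8 reached 6.57 in KYN-2 TECs and Adam23 -4.52.

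Adam23 had the lowest mean ratio of all members. It lacks protease activity, is best known from neurons and binds integrins and LGI proteins. Its log2 signal was 12.42 in LSECs, 8.18 in HAK-1B TECs, 8.43 in Hepa1-6 TECs, 7.90 in KYN-2 TECs and 6.16 in Hepa1-6 cells. The 3 TECs lay within 0.53 of each other and all were far below LSECs. It was 18.9-fold, 15.9-fold and 22.9-fold lower in TECs of HAK-1B, Hepa1-6 and KYN-2 (mean log2 ratio -4.25 ± 0.27, SD, n = 3 TECs) and 76.3-fold lower in Hepa1-6 cells. A second probe, also bright in LSECs (13.26), had log2 ratios of -4.71, -4.80 and -5.40. Another was at 8.05 in LSECs and well above background in Hepa1-6 TECs alone of the other arrays, and the last pair of probes was detected on none.

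LSEC markers were lower in the TECs as well. Of the 8 LSEC markers 7 were at least 2-fold lower in all 3 TECs, and the remaining marker Lyve1 was 11.29 in LSECs, 11.07 in HAK-1B TECs, 12.26 in Hepa1-6 TECs and 13.17 in KYN-2 TECs. The median log2 ratio of the list was -3.02, -2.76 and -2.36 in TECs of HAK-1B, Hepa1-6 and KYN-2, and that of the pan-endothelial list -2.47, -2.45 and -1.32. The ratio of Adam23 was below the list medians in each TEC, and nearest to the mean log2 ratios of the LSEC markers Oit3 (-4.20) and Clec4g (-4.01). The share of sinusoidal cells in each sample was not tested.

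Adam1a and Adam26b, known from testis and sperm, were lower as well. Adam1a had log2 signals of 8.52 in LSECs, 6.48 in HAK-1B TECs, 4.95 in Hepa1-6 TECs, 6.66 in KYN-2 TECs and 7.25 in Hepa1-6 cells, or 4.11-fold, 11.9-fold and 3.65-fold lower in the TECs. With arrays scaled to the 75th percentile Adam1a was 6.18-fold lower in Hepa1-6 TECs. Adam26b was 7.69 in LSECs, 2.80 in HAK-1B TECs (not well above background), 3.18 in Hepa1-6 TECs, 5.97 in KYN-2 TECs and 6.95 in Hepa1-6 cells. LSECs were highest of the 5 arrays for both genes. Each has a close paralog next to it in the genome (Adam1b and Adam26a) and 1 probe on the array, so which copy gave the signal is uncertain.

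As a check that takes the TECs as 1 group, limma was fitted to the 3 TECs against LSEC over 42113 probes, with 2 residual degrees of freedom and with LSEC, a single array, taken to have the spread of the TECs. No probe passed an adjusted p of 0.05 (0 of 42113, percent called 0), and 3581 had an unadjusted p below 0.05. Of 48 member probes fitted, 0 passed and 6 had an unadjusted p below 0.05: Adam1a, Adam8, Adam23, Adamts4, Adamts5 and Adamtsl5. The limma adjusted p was 0.443 for Adam8, Adam23 and Adamts4, 0.447 for Adamtsl5, 0.492 for Adamts5, 0.57 for Adam1a and 0.638 for Adamtsl4. The directions named above were thus shared by 3 of 3 TECs without a call by the test.

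The sheddases Adam10 and Adam17, which most tissues express, were within 2-fold of LSECs in each TEC by the probe used. Adam10, which cuts Notch receptors, cadherins and the amyloid precursor protein, had log2 signals of 12.99 in LSECs, 12.89 in HAK-1B TECs, 12.57 in Hepa1-6 TECs, 12.58 in KYN-2 TECs and 11.43 in Hepa1-6 cells. Its mean log2 ratio in the TECs was -0.31 ± 0.19 (SD, n = 3 TECs), and its second probe had ratios of 0.15, 0.07 and 0.07, so the direction was not shared by the probes. Adam17, the TNF-converting enzyme, was 10.39 in LSECs, 11.25 in HAK-1B TECs, 9.62 in Hepa1-6 TECs, 9.93 in KYN-2 TECs and 8.34 in Hepa1-6 cells. HAK-1B TECs were above LSECs and the other TECs below, and the mean of -0.12 was smaller than its spread (SD 0.86). The other probes for Adam17 had log2 ratios of 1.52 and 1.65 in HAK-1B TECs, past 2-fold, and the probes disagreed in direction in Hepa1-6 and KYN-2 TECs.

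For Adam9 and Adam15 HAK-1B TECs were the highest of the 5 arrays and Hepa1-6 cells the lowest. Adam9, which sheds growth factor precursors, was 12.36 in LSECs, 13.09 in HAK-1B TECs, 11.84 in Hepa1-6 TECs, 12.12 in KYN-2 TECs and 11.82 in Hepa1-6 cells, a mean log2 ratio of -0.01 ± 0.66 (SD, n = 3 TECs). Adam15, a disintegrin protease known from endothelium, was 14.68 in LSECs, 15.74 in HAK-1B TECs, 14.82 in Hepa1-6 TECs, 15.48 in KYN-2 TECs and 14.04 in Hepa1-6 cells. It was higher in 3 of 3 TECs with log2 ratios of 1.06, 0.14 and 0.80, and its 3 probes had the same direction in each TEC. The mean log2 ratio of 0.67 ± 0.47 (SD, n = 3 TECs) did not reach 2-fold by this probe and quantile normalization. The other probes had log2 ratios of 1.79, 0.87 and 1.54, and of 1.18, 0.19 and 0.84. With arrays scaled to the 75th percentile the probe used had 1.45, 0.43 and 1.40.

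Of the meltrins, Adam12 and Adam19, which are known from muscle, bone and developing heart, Adam19 had log2 signals of 10.25 in LSECs, 12.14 in HAK-1B TECs, 9.70 in Hepa1-6 TECs, 10.53 in KYN-2 TECs and 7.30 in Hepa1-6 cells. It was 3.71-fold higher in HAK-1B TECs and within 1.5-fold of LSECs in the other TECs. Adam12 was 6.15 in LSECs, 5.40 in HAK-1B TECs, 3.97 in Hepa1-6 TECs, 5.77 in KYN-2 TECs and 5.38 in Hepa1-6 cells, where it was not well above background. It was 4.53-fold lower in Hepa1-6 TECs by quantile normalization, and its log2 ratio there was -0.88 when arrays were scaled to their 75th percentile. A second Adam12 probe, at 5.31 in LSECs, had log2 ratios of -1.73, -2.32 and -2.29 in TECs of HAK-1B, Hepa1-6 and KYN-2. That probe was not well above background in HAK-1B or KYN-2 TECs.

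Adam33, known from smooth muscle and fibroblasts, was lower in 3 of 3 TECs. Its log2 signal was 8.71 in LSECs, 7.59 in HAK-1B TECs, 8.14 in Hepa1-6 TECs, 7.72 in KYN-2 TECs and 5.98 in Hepa1-6 cells (not well above background), with a mean log2 ratio of -0.90 ± 0.29 (SD, n = 3 TECs). Another probe for Adam33, at 8.97 in LSECs, had log2 ratios of -2.23, -1.91 and -1.83, past 2-fold in each TEC. Adam28, known from lymphocytes and epididymis, lay between 4.51 and 5.44 on the 5 arrays and was not well above background in KYN-2 TECs and Hepa1-6 cells. Adam11, which like Adam23 lacks protease activity, was 8.18 in LSECs, 8.88 in HAK-1B TECs, 8.28 in Hepa1-6 TECs, 10.10 in KYN-2 TECs and 8.71 in Hepa1-6 cells. Its 3.77-fold higher signal in KYN-2 TECs was the only ratio past 2-fold by the probe used. A second probe, not well above background in LSECs, had log2 ratios of 1.54, -0.01 and 1.19 in TECs of HAK-1B, Hepa1-6 and KYN-2. By the rule for undetected signals that probe was at least 1.54-fold higher in HAK-1B and 1.21-fold in KYN-2 TECs.

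**Figure D4:**
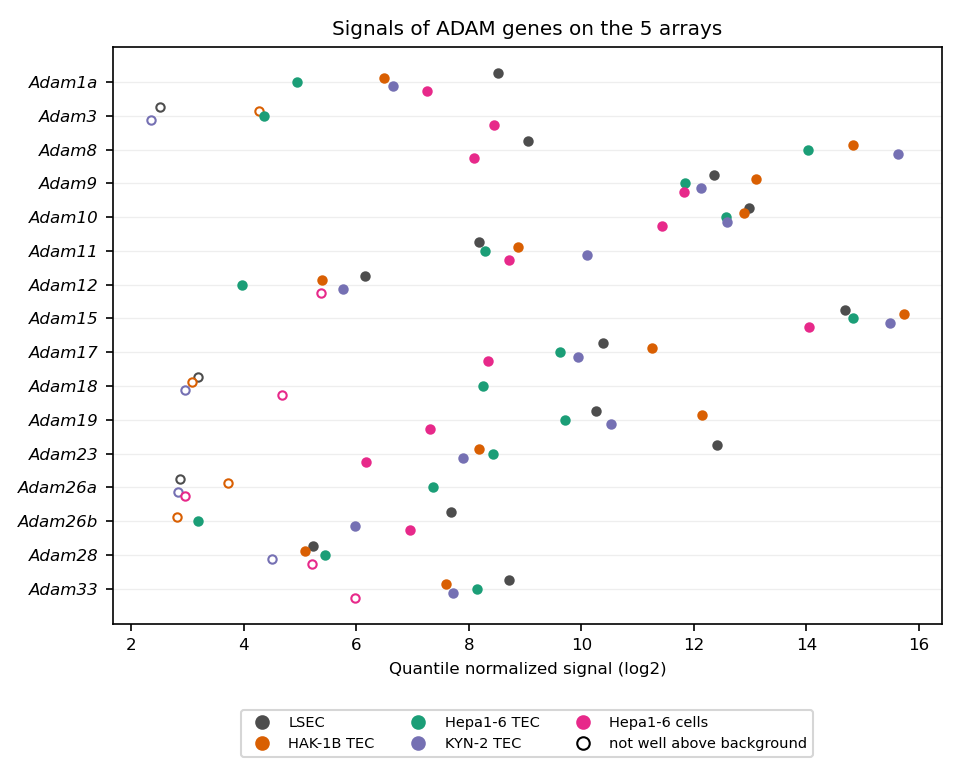
Quantile normalized log2 signal of named ADAM genes on the 5 arrays, 1 point per array; open points were not well above background. Adam8 is high in the 3 TECs (14.02 to 15.62), Adam23 is high in LSECs (12.42) alone, and Adam9, Adam10 and Adam15 vary by less than 2 units.

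Apart from Adamts4 and Adamts5, no proteoglycan-cutting ADAMTS protease was at least 2-fold higher in all 3 TECs by the probe used. Adamts1, a versicanase made by endothelium, was 12.82 in LSECs, 11.48 in HAK-1B TECs, 11.99 in Hepa1-6 TECs, 12.20 in KYN-2 TECs and 7.94 in Hepa1-6 cells. LSECs were highest, the TECs were 2.54-fold, 1.78-fold and 1.54-fold lower, and tumor cells 29.6-fold lower. Adamts9, which also cuts versican, was 8.90 in LSECs, 10.11 in HAK-1B TECs, 9.34 in Hepa1-6 TECs, 10.72 in KYN-2 TECs and 3.82 in Hepa1-6 cells (not well above background). It was higher in 3 of 3 TECs by this probe, by 2.31-fold, 1.36-fold and 3.53-fold. Of its other 3 probes, the probe that was brightest in LSECs (10.76) was lower in all 3 TECs, with log2 ratios of -1.54, -2.01 and -0.80. The direction of Adamts9 thus depended on the probe.

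Adamts8 was far above background in HAK-1B TECs alone. It was at background in LSECs (2.27), KYN-2 TECs (2.26) and Hepa1-6 cells (2.28), just detected in Hepa1-6 TECs (3.04), and 9.46 in HAK-1B TECs, at least 27.5-fold higher than in LSECs. This gene, which has been studied as an inhibitor of blood vessel growth, has 1 probe and 1 array behind this value. Its neighbour Adamts15 was not well above background in HAK-1B TECs. Adamts20, a versicanase of skin and palate development, was 6.13 in LSECs, 7.48 in HAK-1B TECs, 4.54 in Hepa1-6 TECs, 5.10 in KYN-2 TECs and 2.23 in Hepa1-6 cells (not well above background), above LSECs in HAK-1B TECs and below them in the other TECs. Its second probe, dim in LSECs and KYN-2 TECs, had log2 ratios of 0.24, -0.22 and -0.26 in TECs of HAK-1B, Hepa1-6 and KYN-2.

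The procollagen N-proteinases, which trim fibrillar procollagens before they assemble, differed between tumors. Adamts2 was 6.22 in LSECs, 6.92 in HAK-1B TECs, 8.26 in Hepa1-6 TECs, 9.08 in KYN-2 TECs and 2.81 in Hepa1-6 cells (not well above background). The ratios were 1.62-fold, 4.11-fold and 7.24-fold in TECs of HAK-1B, Hepa1-6 and KYN-2, higher in 3 of 3 by this probe. A second Adamts2 probe was well above background in Hepa1-6 TECs alone and the last on none of the arrays. Adamts14 was 7.13 in LSECs, 7.31 in HAK-1B TECs, 9.18 in Hepa1-6 TECs, 7.79 in KYN-2 TECs and 8.54 in Hepa1-6 cells, with the highest values in Hepa1-6 TECs and Hepa1-6 cells. Adamts3 was detected in Hepa1-6 TECs alone.

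The procollagen chains Col1a1, Col1a2 and Col3a1 had the same order of arrays as Adamts2, with KYN-2 TECs highest and LSECs below all TECs. In LSECs Col1a1 was 4.72 and not well above background, and it was 9.46 in HAK-1B TECs, 10.87 in Hepa1-6 TECs and 11.53 in KYN-2 TECs. Of the 12 markers of stellate cells and fibroblasts 9 were detected in LSECs, 11 in HAK-1B TECs, 12 in Hepa1-6 TECs, 11 in KYN-2 TECs and 3 in Hepa1-6 cells. The summed signal of the list was 13235 in LSECs, 24328 in HAK-1B TECs, 47720 in Hepa1-6 TECs, 36186 in KYN-2 TECs and 125731 in Hepa1-6 cells. Dcn made up most of the sum in Hepa1-6 cells (16.74) and in Hepa1-6 TECs (14.72). Of the 12 markers 4 were at least 2-fold higher in all 3 TECs and 0 lower. Dcn, Lum, Pdgfra and Postn were below LSECs in HAK-1B TECs (log2 ratios of -0.79, -0.48, -1.09 and -0.80). Reln was below LSECs in Hepa1-6 and KYN-2 TECs (-1.92 and -1.21). Col1a1, Des and Lrat were not well above background in LSECs. The part of such cells in the signal of Adamts2 was not tested.

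Adamts7 and Adamts12, which cut cartilage oligomeric matrix protein, had no shared direction in the TECs. Adamts7 was 10.48 in LSECs, 8.80 in HAK-1B TECs, 10.25 in Hepa1-6 TECs, 10.96 in KYN-2 TECs and 6.72 in Hepa1-6 cells, with HAK-1B TECs 3.21-fold lower. Adamts12 was 5.83 in LSECs, 6.18 in HAK-1B TECs, 3.31 in Hepa1-6 TECs, 5.69 in KYN-2 TECs and 2.62 in Hepa1-6 cells (not well above background). Adamts10, which acts on fibrillin, lay between 7.27 and 8.01 in the endothelial samples and at 6.90 in Hepa1-6 cells. Adamts13, the protease of von Willebrand factor that liver stellate cells make, lay between 2.78 and 3.08 on the 5 arrays and was well above background in Hepa1-6 TECs alone, while its substrate Vwf was 13.59 in LSECs, 12.53 in HAK-1B TECs, 12.08 in Hepa1-6 TECs and 14.11 in KYN-2 TECs. Adamts18 lay between 4.50 and 5.63.

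**Figure D5:**
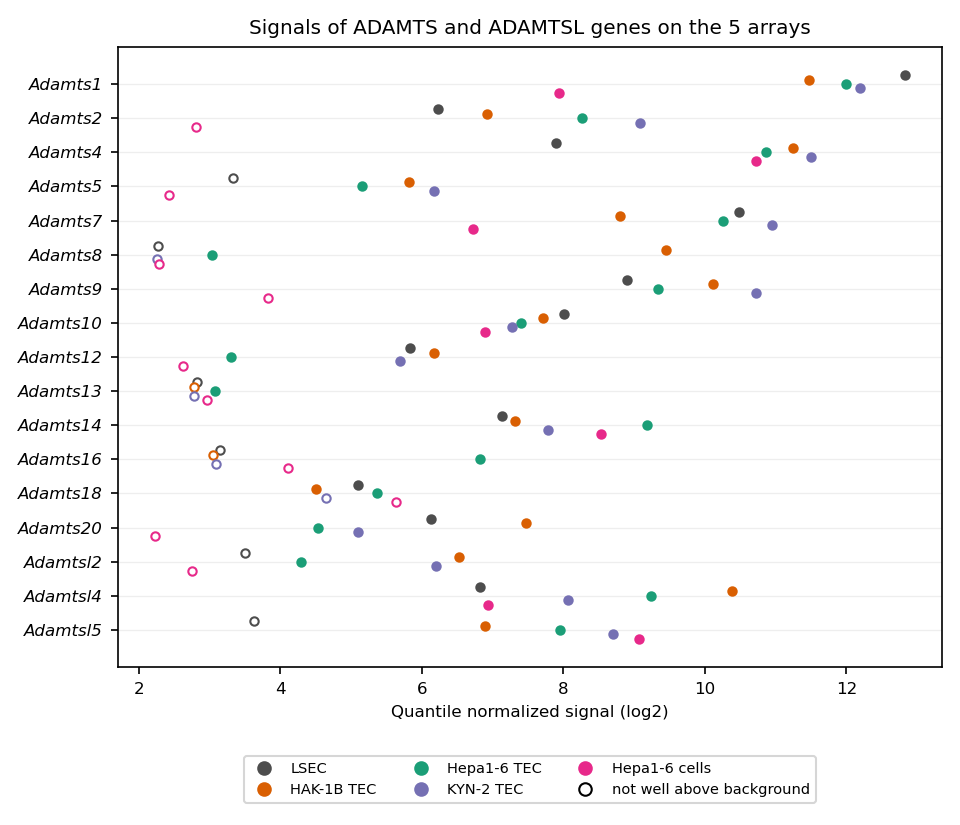
Quantile normalized log2 signal of named ADAMTS and ADAMTSL genes on the 5 arrays, 1 point per array; open points were not well above background. LSECs lie below the 3 TECs for Adamts4, Adamts5, Adamtsl2, Adamtsl4 and Adamtsl5, and Adamts8 is high in HAK-1B TECs (9.46) alone.

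Of the ADAMTSL genes, Adamtsl3 and Adamtsl4 were detected in LSECs, and the other 3 entered each comparison through the TECs, so that no median is given for this family. Adamtsl2, which binds latent TGF-beta binding protein and fibrillin, was not well above background in LSECs (3.50) or Hepa1-6 cells (2.75) and was 6.53 in HAK-1B TECs, 4.30 in Hepa1-6 TECs and 6.20 in KYN-2 TECs. This was at least 3.61-fold higher in HAK-1B and 2.87-fold in KYN-2 TECs, with no bound above 1 in Hepa1-6 TECs. Adamtsl1 was detected in HAK-1B TECs (7.19) and KYN-2 TECs (5.54) alone, and Adamtsl3 was 5.93 in LSECs, 2.10-fold higher in HAK-1B TECs, and 5.74 in Hepa1-6 TECs and 5.30 in KYN-2 TECs.

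Of the 21 testis-type ADAM genes 12 were detected in Hepa1-6 TECs, more than on the other arrays. The share of all gene names was highest there too, at 78.7%. Adam18 was 8.26 there and not well above background elsewhere (2.95 to 4.69), at least 12.0-fold higher than in LSECs. Adam26a was 7.37 there and 2.83 to 3.72 elsewhere, at least 6.45-fold higher, and the same holds for the secreted protease Adamts16, at 6.83 against 3.05 to 4.10 and at least 4.44-fold higher. Cultured Hepa1-6 cells were not well above background for these 3 genes. The second probe of Adam18 was at 3.52 in Hepa1-6 TECs, and the other probes of Adamts16 were detected on none of the arrays. Adam3, a sperm surface protein, had the opposite pattern, at 8.45 in Hepa1-6 cells and 4.37 in Hepa1-6 TECs, and was not well above background in LSECs (2.51), HAK-1B TECs (4.28) or KYN-2 TECs (2.34). Adam18, Adam3, Adam5, Adam32 and Adam9 are neighbours on chromosome 8 with no coding gene between them, and of these Adam9 alone was detected on all 5 arrays.

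Members were counted by tumor as well. In HAK-1B TECs 17 of 36 members compared (47.2%) were at least 2-fold higher, where 17.4% of all genes were, and 6 (16.7%) at least 2-fold lower, where 18% were. In Hepa1-6 TECs 13 of 45 (28.9%) were higher against 25.1% of all genes, and 7 (15.6%) lower against 22%. In KYN-2 TECs 10 of 32 (31.2%) were higher against 16.8%, and 4 (12.5%) lower against 18.3%. The count for Hepa1-6 TECs was 25 higher and 4 lower when arrays were scaled to the 75th percentile. No share of all genes is given for this scaling. It also moved the median log2 ratio of all genes detected in this comparison from 0.09 to 0.43. Members detected in the TECs and not in LSECs entered these counts through the TECs. With the probe above background on both arrays 8 of 25 members (32%) were higher in HAK-1B TECs against 13.4% of all genes, 5 of 26 (19.2%) in Hepa1-6 TECs against 14.8% and 6 of 24 (25%) in KYN-2 TECs against 13.3%. By this filter 5 (20%) were lower in HAK-1B TECs against 15.9% of all genes, 7 (26.9%) in Hepa1-6 TECs against 27.5% and 4 (16.7%) in KYN-2 TECs against 15.2%.

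The median log2 ratio of members detected on both arrays was 0.69 in HAK-1B TECs, -0.47 in Hepa1-6 TECs and -0.19 in KYN-2 TECs, beside -0.04, -0.23 and -0.05 for all genes. ADAM genes detected on both arrays had medians of 0.70, -0.56 and -0.38 and ADAMTS genes 0.27, 0.02 and 0.48 in the same order. With detection on 1 array enough, the medians were 0.69, 0.39 and 0.48 for ADAMTS and 0.74, -0.34 and -0.31 for ADAM genes, beside -0.0019, 0.09 and -0.05 for all genes. With arrays scaled to the 75th percentile the medians were 0.64, 1.93 and 0.53 for ADAMTS and 0.70, 0.67 and -0.15 for ADAM genes, beside 0.04, 0.43 and 0.02 for all genes. The direction of ADAM genes in Hepa1-6 TECs thus turned with the scaling, which raised the median of all genes there too.

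By the rule of the study's methods, which asks for a ratio of 1.5 or more together with a Z-score of 2 or more, or for 0.66 or less together with -2 or less, fewer members were called. HAK-1B TECs had 6 members higher (Adam8, Adamts4, Adamts8, Adamtsl2, Adamtsl4 and Adamtsl5; 3.11% of all genes were called) and 2 lower (Adam23 and Adam26b; 3.94%). Hepa1-6 TECs had 5 higher (Adam8, Adam18, Adam26a, Adamts16 and Adamtsl5; 4.55%) and 3 lower (Adam1a, Adam23 and Adam26b; 2.04%). KYN-2 TECs had 5 higher (Adam8, Adamts2, Adamts4, Adamts5 and Adamtsl5; 3.64%) and Adam23 alone lower (2.87%). Adam8 and Adamtsl5 were called higher in all 3 TECs, 2 of 30 members where 0.58% of all genes were, and Adam23 lower, 1 of 30 where 1% were. The Z-score made a higher call ask for at least 7.25-fold in HAK-1B, 11.4-fold in Hepa1-6 and 6.79-fold in KYN-2 TECs, and a lower call for at least 6.91-fold, 9.84-fold and 6.77-fold.

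In cultured Hepa1-6 cells most members were below LSECs. Of 28 members compared 15 (53.6%) were at least 2-fold lower, where 30.9% of all genes were, and 4 (14.3%) were higher, where 28.2% were. The 4 higher members were Adam3, Adamts4, Adamts14 and Adamtsl5. With both arrays above background 8 of 16 (50%) were lower against 19.6% of all genes and 2 (12.5%) higher against 29.5%, with a median log2 ratio of -1.04 against 0.24. By the rule with the Z-score 2 members were called higher (Adam3 and Adamtsl5; 2.59% of all genes) and Adam23 lower (4.81%). Against cultured Hepa1-6 cells, Hepa1-6 TECs had log2 differences of 5.94 for Adam8, 4.06 for Adamts1 and 3.53 for Adamts7. Adamts9 and Adamts2 were not well above background in the cells, and were at least 10.4-fold and 4.93-fold higher in Hepa1-6 TECs. For Adamts4 the difference was 0.14 and for Adamtsl5 -1.11.

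Genes that act with these proteases came from lists of inhibitors, trafficking factors and substrates. Of 5 inhibitors, Timp1 was higher and Timp3 lower in all 3 TECs. Timp3, the inhibitor of ADAM17 and of the aggrecanases, was 15.18 in LSECs, 11.98 in HAK-1B TECs, 12.65 in Hepa1-6 TECs, 13.53 in KYN-2 TECs and 10.33 in Hepa1-6 cells, a mean log2 ratio of -2.47 ± 0.78 (SD, n = 3 TECs). Timp1 was 7.33 in LSECs and 11.85, 11.61 and 11.02 in TECs of HAK-1B, Hepa1-6 and KYN-2, while Timp2 (mean log2 ratio -0.64) and Reck, a membrane inhibitor (-0.75), were within 2-fold on average.

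Of 13 factors that carry or mature ADAM10 and ADAM17, 1 was at least 2-fold higher in all 3 TECs (Pcsk5, a proprotein convertase, 3.31 in LSECs, where it was not well above background, and 5.47 to 5.76 in the TECs) and 1 lower (Tspan33, a tetraspanin that partners ADAM10, 14.62 against 12.69 to 13.16). Rhbdf2, the iRhom that takes ADAM17 to the surface of immune cells, was 9.99 in LSECs, 11.59 in HAK-1B TECs, 10.88 in Hepa1-6 TECs and 10.83 in KYN-2 TECs. Tspan15, which directs ADAM10 to cadherins, was 11.49 in LSECs, 8.13 in HAK-1B TECs, 10.84 in Hepa1-6 TECs and 10.00 in KYN-2 TECs, and Pcsk6 had a mean log2 ratio of 2.15 ± 1.74 (SD, n = 3 TECs).

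Of 28 membrane proteins that ADAM10 or ADAM17 shed, 5 were at least 2-fold higher and 5 lower in all 3 TECs. Met, the receptor of hepatocyte growth factor, had a mean log2 ratio of 3.99 from a signal not well above background in LSECs, the growth factor Areg 3.37 and the membrane chemokine Cx3cl1 3.07, while Kdr, the main VEGF receptor of endothelium, had -3.47. Of 20 matrix and plasma substrates of ADAMTS proteases, 4 were higher in all 3 TECs and 0 lower, and these were versican (Vcan) and the procollagen chains Col1a1, Col1a2 and Col3a1. Vcan was 6.37 in LSECs, 7.60 in HAK-1B TECs, 7.88 in Hepa1-6 TECs, 8.41 in KYN-2 TECs and 6.36 in Hepa1-6 cells. Aggrecan (Acan) was not well above background on any array.

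Other cell type lists differed between the arrays as well. The hepatocyte list had a summed signal of 17678 in LSECs, 809.2 in HAK-1B TECs, 70988 in Hepa1-6 TECs, 1936.8 in KYN-2 TECs and 27672 in Hepa1-6 cells. The platelet list had 56454 in LSECs, 39304 in HAK-1B TECs, 58568 in Hepa1-6 TECs and 129033 in KYN-2 TECs, the array on which Adam8 was highest; Pf4 (16.90 there) made up most of it, and of the 5 platelet markers 2 were at least 2-fold lower in all 3 TECs and 0 higher. The part of platelets in the Adam8 signal was not tested. The list of T and NK cells had 1707 in LSECs and 1617 to 2561 in the TECs. Adamdec1, an ADAM-like protease of macrophages whose name lies outside the pattern, was 14.36 in LSECs, 11.44 in HAK-1B TECs, 14.82 in Hepa1-6 TECs and 13.15 in KYN-2 TECs and thus did not follow Adam8.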

How the data were processed

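Cy3-labelled RNA was measured on a 1-colour mouse array of 60-mer probes and scans were quantified with Agilent Feature Extraction, version 9.5.1.1 per the submitters' processing notes and 10.7.1.1 per the file headers. The authors deposited linear intensity values for every spot (processed signal, from which background had been subtracted, spot mean and background), flags, and a table of intensity values normalized between arrays. The RNA kit differs between the labels and the methods.

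After removal of control spots and averaging of repeats, 56605 probes remained. Log2 values of the deposited processed intensity were quantile normalized over the 5 arrays, and 4460 lincRNA probes were left out of gene counts. Where a signal was not well above background, "at least" gives the fold against the lowest detected signal of that array, or the dim signal itself where higher. Median variation of repeated spots was 2.70% to 3.12%, which is technical only; the number of arrays limits the precision. limma 3.58.1 in R 4.3.3 with Benjamini-Hochberg adjustment over all probes, Python 3.11.15, numpy 2.4.6 and pandas 2.3.3 were used, and the rules were tested on simulated data. Positions are those of the probes on mm9; all 57 symbols matched a RefSeq gene table of GRCm38.p6, used for names and neighbours.

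The members, the gene lists and the rule for named genes were chosen with earlier results of these data known. That rule took 20 members by role, members past 2-fold in all 3 TECs, those detected on all 5 arrays and the 5 largest ratios in each direction per array; other members named, Vcan, Vwf, Dcn, Acan and Lyve1 among list genes, were chosen after their values were seen. Alternatives tried were other normalizations (75th percentile, by pair, normexp with offset 50, the deposited table, without Hepa1-6 TECs), other filters, probe rules, folds of 1.5 and 3, no Z-score, each TEC left out, and, chosen after seeing the data, dim signals set to the lowest signal above background.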

Additional observations from a re-analysis of the deposited data

Results flagged for a closer look

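Adamts20 differed between tumors, with a log2 ratio to LSEC of 1.35 in HAK-1B TECs, -1.59 in Hepa1-6 TECs and -1.03 in KYN-2 TECs. With 1 array per tumor the difference was not tested. When arrays were scaled to the 75th percentile the ratios were 1.31, -0.47 and -1.17. These values come from 1 probe. The second probe, not well above background in LSECs or KYN-2 TECs, had smaller log2 ratios of 0.24, -0.22 and -0.26.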

How the results depend on the processing

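No paired analysis was possible because conditions had a single array each, and a slide block could not be fitted. Of 66 named ratios under 396 alternatives, 333 moved by less than the spread between TECs, 62 moved more and 1 reversed: Adamts10 in Hepa1-6 cells had a log2 ratio of 0.55 by the mean of all probes. With normexp, higher members were 10 in HAK-1B, 6 in KYN-2 and 3 in all 3 TECs, and lower members 3 in Hepa1-6 TECs. With both arrays above background, higher members were 8, 5 and 6 in TECs of HAK-1B, Hepa1-6 and KYN-2, 3 in all 3 TECs and 2 in Hepa1-6 cells, where 8 were lower. Scaling to the 75th percentile, which shifted the median log2 ratio of all genes by -0.36, 0.35, -0.10 and 0.72 in TECs of HAK-1B, Hepa1-6 and KYN-2 and in Hepa1-6 cells, gave 25 higher and 4 lower members and a median log2 ratio of 1.09 in Hepa1-6 TECs. All genes detected in that comparison had a median of 0.43 by this scaling. At 1.5-fold, 8 members were higher in all 3 TECs, and 11 and 9 lower in Hepa1-6 and KYN-2 TECs. At 3-fold, 11 were higher in HAK-1B TECs. The mean of all probes gave 5 lower members in all 3 TECs, and dim signals set to the lowest signal above background 11 lower in Hepa1-6 TECs. Above the 99th percentile of negative controls, 11 members were detected in Hepa1-6 cells. By the methods' rule without the Z-score, 30, 28, 23 and 23 members were called in TECs of HAK-1B, Hepa1-6 and KYN-2 and in Hepa1-6 cells. With the Z-score, the rule compared 36, 45, 32 and 28 members in the same order. No share of all genes is given for the rule without the Z-score. The same holds for normexp, 1.5-fold, 3-fold, the mean of all probes, dim signals set higher and leaving out a TEC. The counts at these settings thus do not set members against all genes. With normexp 5 were called in HAK-1B TECs, with present flags on both arrays 4 in HAK-1B and 5 in Hepa1-6 TECs, and without a filter 5 in Hepa1-6 cells. The cause of these differences was not tested. Leaving out each TEC in turn gave 5 to 7 higher and 3 to 4 lower members in the remaining TECs, and limma called 0 members in each case.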
